A study of Mus musculus with 6 samples.

Results

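The transcripts of 10 genes for fatty acid uptake and binding were followed in primary brown adipocytes of WT and Ucp1-KO mice. They comprised the fatty acid binding proteins Fabp3, Fabp4 and Fabp5, the scavenger receptor Cd36, the fatty acid transport proteins Slc27a1, Slc27a2 and Slc27a4, lipoprotein lipase (Lpl), the very low density lipoprotein receptor (Vldlr) and the acyl-CoA-binding protein Dbi. The genes were chosen by name, and each was represented by its RefSeq transcript with the highest mean over all cultures. All 10 of 10 were found among the 28890 RefSeq transcripts of 22466 genes in the table. Of these, 9 reached a mean of 0.5 reads per kilobase per 1000000 mapped reads (RPKM) and entered the genotype comparison over 16865 transcripts, whereas Slc27a2 remained below this minimum.

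WT mice and Ucp1-KO mice, which lack the uncoupling protein of brown fat mitochondria, shared the strain label 129SvEvS1. Precursor cells of the stromal-vascular fraction were isolated from interscapular brown adipose tissue of male mice and differentiated in the dish, and 3 cultures of each genotype (WT 10, 11 and 12, Ucp1-KO 13, 14 and 15) were sequenced. Both genotypes went through the same differentiation media, which contained insulin, triiodothyronine and rosiglitazone, an agonist of the nuclear receptor PPARγ. The RNA was taken from cultures without a further stimulus named in the labels. Nothing in the labels says which cultures came from separate mice, so p-values measure the spread between cultures only. Per the study's description, a shortened Ucp1 transcript is still made in Ucp1-KO cells. Over the whole transcript, Ucp1 averaged 1304 ± 417 RPKM in the WT and 371 ± 56.1 RPKM in the Ucp1-KO cultures (SD, n = 3), which did not overlap.

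Brown adipocytes take up fatty acids that Lpl releases from triglycerides of circulating lipoproteins at the capillary wall, and Vldlr binds such lipoproteins. Cd36 and the transport proteins of the Slc27a family facilitate entry across the plasma membrane, and Slc27a proteins also couple fatty acids to coenzyme A. Inside the cell, fatty acid binding proteins keep fatty acids in solution, and Dbi binds their coenzyme A esters. In these cultures there is no blood stream, so the values describe transcripts of the uptake machinery and not uptake itself.

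The 3 binding proteins are related in sequence, and a read of 50 bases can be assigned to a gene only where its sequence is found nowhere else. The first 60 coding bases of Fabp4 and Fabp3 show how far both genes differ, read from GENCODE M21 transcripts on GRCm38, where Fabp4 occupies chr3:10208452-10208511 on the reverse strand and Fabp3 chr4:130308778-130308837 on the forward strand. Capitals in Fabp3 mark the 44 bases that are identical in Fabp4.
Fabp4: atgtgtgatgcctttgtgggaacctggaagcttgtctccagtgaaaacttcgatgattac
Fabp3: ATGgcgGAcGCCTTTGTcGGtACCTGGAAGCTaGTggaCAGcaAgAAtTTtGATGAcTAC
Over the whole coding sequence, Fabp3 and Fabp4 were identical at 65.6% of aligned bases, Fabp4 and Fabp5 at 61.1%, and Fabp3 and Fabp5 at 57.3%. The longest identical run between any pair of them was 14 bases, and 0 windows of 50 bases were shared among the 10 genes. No read without mismatches could therefore fit a pair of the 10 genes at once.

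Processed pseudogenes, intronless copies of an mRNA elsewhere in the genome, were different. Fabp3-ps1 on chromosome 10 (86731987 to 86732388, reverse strand) held 223 of the 350 coding windows of Fabp3, or 63.7%. Gm6166 on chromosome 9 (57483963 to 57484371, forward strand) held 184 of the 356 coding windows of Fabp5, or 51.7%. Gm12222 on chromosome 11 (54199433 to 54199692, forward strand) held 14 of the 212 coding windows of Dbi, or 6.604%. The first such window of Fabp3 spans an intron between chr4:130308818 and 130312307, and that of Dbi lies within 1 exon at chr1:120119928-120119977 on the reverse strand. Both are shown because a read with this sequence fits gene and pseudogene alike.
Fabp3 and Fabp3-ps1: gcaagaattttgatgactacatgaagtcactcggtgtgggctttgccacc
Dbi and Gm12222: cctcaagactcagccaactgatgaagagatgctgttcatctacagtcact
Of the whole GENCODE transcripts, which differ in length from the RefSeq ones used for abundance except for Cd36 and Slc27a1, 37.3% of the windows of Fabp3, 21.1% of Fabp5, 12.97% of Slc27a2, 4.11% of Lpl, 2.69% of Dbi and 1.75% of Slc27a1 were also present in some other gene. Those of Fabp4, Cd36, Slc27a4 and Vldlr were present in 0 other genes.

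Abundance ranged widely, from Fabp4 at the top of all RefSeq transcripts to Slc27a2 at a handful of reads. Ranked by their mean over the WT cultures, the genes followed the order Fabp4, Dbi, Lpl, Cd36, Slc27a1, Vldlr, Fabp5, Slc27a4, Fabp3 and Slc27a2, and no neighbours in this order overlapped between WT cultures. In Ucp1-KO cells, Slc27a1 and Vldlr, Vldlr and Fabp5, and Fabp3 and Slc27a4 could not be told apart by the range of their cultures, and the mean of Fabp3 (19.998 RPKM) came to lie beside that of Slc27a4 (19.9 RPKM). A wide gap separated the 4 abundant genes from the remaining 6, with Cd36 at 16.3-fold the RPKM of Slc27a1 in WT and 20.9-fold in Ucp1-KO cells. Together the 10 genes took between 2.57% and 2.68% of all reads in WT cultures and between 2.70% and 2.82% in Ucp1-KO cultures. Most of this share was Fabp4, at 1.69% to 1.88% of reads with overlap between genotypes, and the summed share was not tested.

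**Figure D1:**
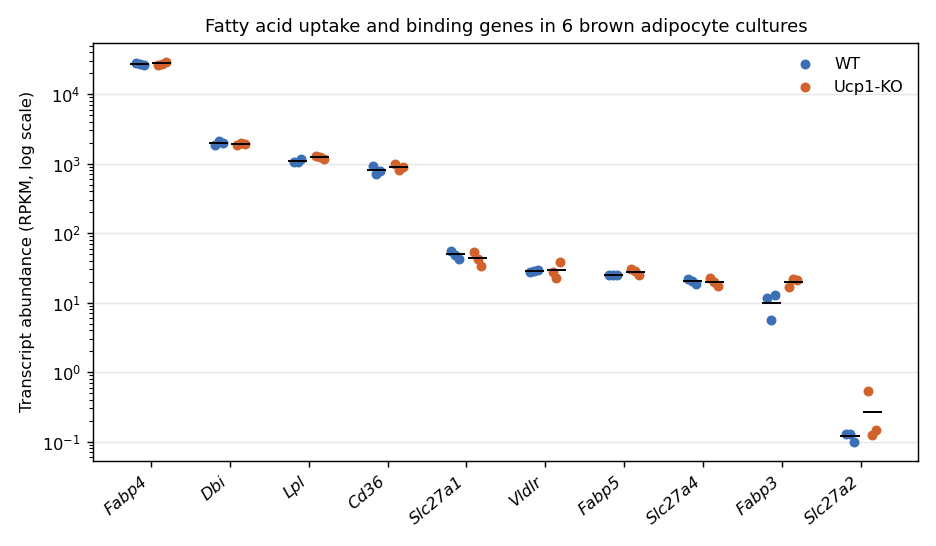
Transcript abundance of the 10 genes in RPKM on a logarithmic axis, with 1 point per culture (blue WT, orange Ucp1-KO) and a black line at the mean of each genotype (n = 3). Fabp4 lies between 26399 and 29312 RPKM, Dbi, Lpl and Cd36 lie between 719 and 2141 RPKM, and Fabp3 is the gene whose WT and Ucp1-KO points are furthest apart among those above 1 RPKM.

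None of the 9 genes tested differed between genotypes after adjustment for all transcripts (limma on log2(RPKM + 1), Benjamini-Hochberg), and 0% of the 16865 transcripts tested did. The smallest adjusted p of any transcript was 0.868. Ucp1, the gene disrupted in Ucp1-KO mice, also had this adjusted p (log2 fold change -1.78, limma unadjusted p = 0.000157). The study's own test listed Ucp1 among its differential genes. A lack of calls after adjustment here therefore does not show equal levels. At an unadjusted p of 0.05, limma singled out 1 of 9 genes, Fabp3, against 5.54% of all transcripts in either direction and 2.3% that were higher in Ucp1-KO cells. Limma-voom on read numbers likewise found 0 genes after adjustment (0% of all transcripts) and 1 without (5.34%). The genotypes did not overlap for 1 of 9 genes (11.1%), again Fabp3, against 11.2% of all transcripts and 6.04% in the direction of Fabp3, so that the share matched that of the transcriptome. Of the 9 genes, 6 were nominally higher and 3 lower in Ucp1-KO cells, with a median log2 fold change of 0.04 beside -0.0016 over all transcripts. The intervals of the 9 differences are the more informative quantity, since they bound what 3 cultures per genotype can show.

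**Figure D2:**
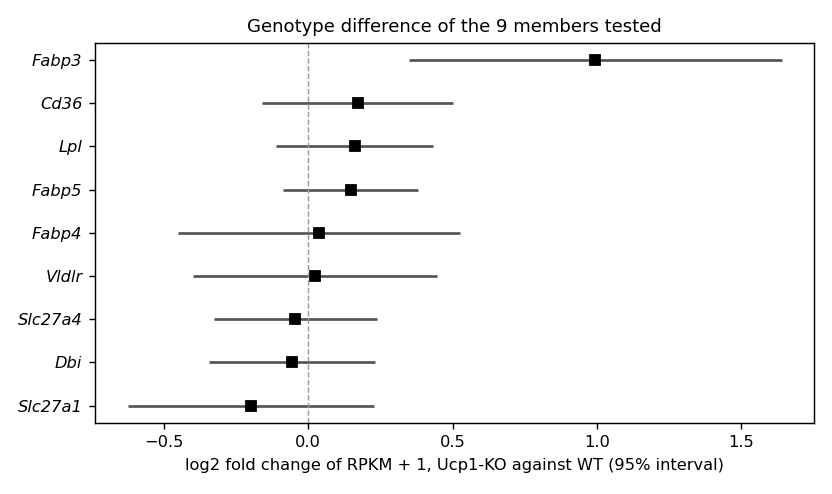
Genotype difference of the 9 genes tested as log2 fold change of RPKM + 1, Ucp1-KO against WT (squares, with 95% intervals from limma, n = 3 cultures per genotype). The interval of Fabp3 runs from 0.35 to 1.64, and those of the other 8 genes include 0.

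Among the binding proteins, Fabp4, the adipocyte form, was the most abundant RefSeq transcript in each of the 6 cultures. It is listed as NM_024406 on the reverse strand of chromosome 3 (10204342 to 10208616, 4 exons). WT cultures 10, 11 and 12 contained 27696, 26785 and 26399 RPKM of Fabp4, and Ucp1-KO cultures 13, 14 and 15 contained 26423, 27322 and 29312 RPKM. The lowest and the highest value differed 1.11-fold, and the genotypes overlapped, with means of 26960 ± 666 and 27686 ± 1479 RPKM. The log2 fold change was 0.04 with a 95% interval from -0.45 to 0.53 (limma, adjusted p = 0.982), and it ranged from -0.0046 without Ucp1-KO 15 to 0.0702 without Ucp1-KO 13. Between 273966 and 303535 reads, 1.69% to 1.88% of each culture's reads, fell on this single transcript. Fabp4 made up 99.80% to 99.88% of the summed RPKM of the fatty acid binding protein family, or 98.02% to 98.36% when the row of Gm6166, the pseudogene of Fabp5 described above, was counted with it, with Fabp1 (liver), Fabp2 (intestine) and Fabp6 (ileum) listed at 0 in all cultures.

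Fabp3, the form of heart and muscle that brown adipocytes also express, showed the largest genotype difference of the 9 genes. NM_010174 lies on the forward strand of chromosome 4 (130308738 to 130315463, 4 exons). Its abundance was 11.5, 5.71 and 12.7 RPKM in WT cultures 10, 11 and 12 and 17.0, 22.1 and 20.8 RPKM in Ucp1-KO cultures 13, 14 and 15. All Ucp1-KO cultures were above all WT cultures, and WT 11 was the lowest culture by a wide margin. The means of 9.98 ± 3.74 and 19.998 ± 2.65 RPKM correspond to a 2.004-fold ratio. The log2 fold change of 0.99 (SE 0.27, 95% interval 0.35 to 1.64) had an unadjusted p of 0.00846 in limma, place 121 of 16865, and an adjusted p of 0.868. An exact two-sided permutation test gave p = 0.1, the smallest that 3 against 3 cultures allow. These values rested on 126, 61 and 144 reads in WT and on 176, 244 and 200 reads in Ucp1-KO cells. Without WT 11 the log2 fold change was 0.67, and over all alternatives the adjusted p lay between 0.407 and 0.999.

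The processed pseudogene of Fabp3 followed its parent gene in the table. Fabp3-ps1 was listed at 8.93, 5.21 and 9.03 RPKM in WT cultures 10, 11 and 12 and at 13.9, 16.4 and 15.6 RPKM in Ucp1-KO cultures 13, 14 and 15. As for Fabp3, WT 11 was lowest, Ucp1-KO 14 highest, and the genotypes did not overlap. The pseudogene held between 0.729 and 0.934 reads per read of Fabp3. Reads of both rows added together, a sum chosen after the values were seen, came to 11.5 ± 3.82 per 1000000 reads in WT and 22.8 ± 2.55 in Ucp1-KO cells, a 1.99-fold ratio (exact permutation p = 0.1). Whether these reads derive from the gene, the pseudogene or both was not tested. The end of the Fabp3 transcript also overlaps Zcchc17 on the opposite strand by 81 bases, and a library kit that does not mark strand cannot separate reads there.

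Fabp5, the epidermal form that is also found in adipocytes and macrophages, was listed as NM_010634 on the forward strand of chromosome 3 (10012585 to 10016610, 4 exons). Its row contained 24.8, 25.2 and 25.3 RPKM in WT cultures 10, 11 and 12 and 30.5, 28.6 and 24.8 RPKM in Ucp1-KO cultures 13, 14 and 15. The WT cultures were nearly equal, and Ucp1-KO 15 fell among them. The log2 fold change was 0.15 (95% interval -0.09 to 0.38, limma adjusted p = 0.876). It was 0.085 without Ucp1-KO 13 and 0.23 without Ucp1-KO 15.

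The level of Fabp5 itself is uncertain because of Gm6166. This processed pseudogene was listed at 425, 427 and 436 RPKM in WT cultures 10, 11 and 12 and at 467, 499 and 466 RPKM in Ucp1-KO cultures 13, 14 and 15. These levels were 15.3 to 18.8 times those of the Fabp5 row of the same culture, and all Ucp1-KO cultures were above all WT cultures. Between 4673 and 5753 reads fell on Gm6166, compared with 347 to 460 on Fabp5. Added together, again after the values were seen, both rows came to 311 ± 4.11 reads per 1000000 in WT and 345 ± 13.4 in Ucp1-KO cells, a 1.11-fold ratio at an exact permutation p of 0.1. By its level, Gm6166 ranked between Cd36 and Slc27a1, whereas the Fabp5 row ranked between Vldlr and Slc27a4. A further 4 pseudogenes with shared windows were listed at means of at most 30.1 RPKM in either genotype. The origin of the reads on Gm6166 was not tested.

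**Figure D3:**
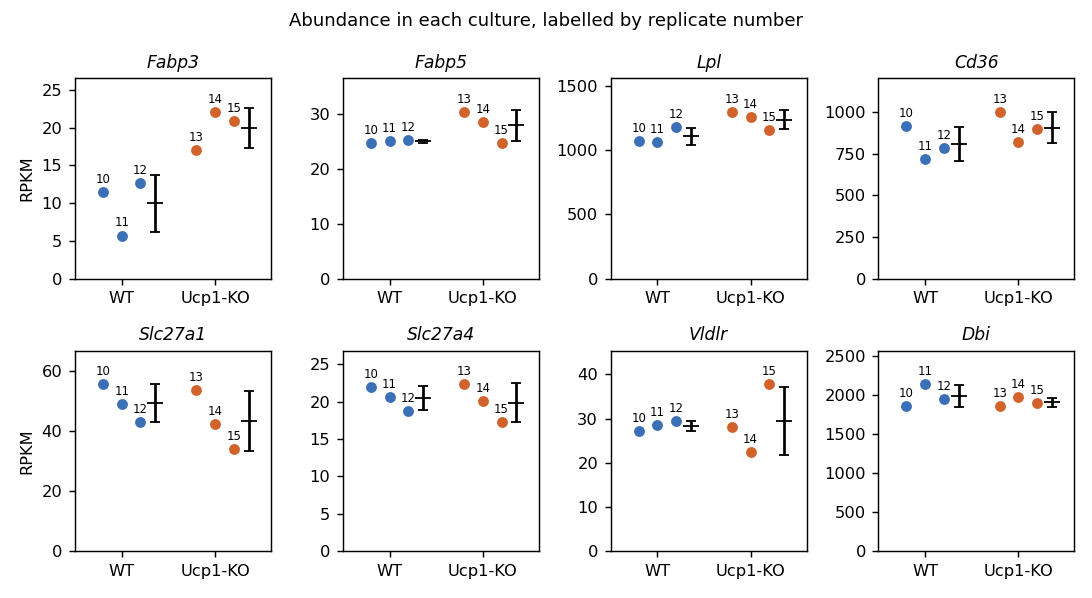
Abundance in RPKM of 8 genes in each culture (points with replicate numbers, blue WT, orange Ucp1-KO) beside the mean and SD of each genotype (black, n = 3), with each axis starting at 0. For Fabp3 all Ucp1-KO points lie above all WT points, whereas the points of the other 7 genes overlap between genotypes.

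Among the proteins of the plasma membrane, Cd36, a multiligand receptor for long-chain fatty acids, was the most abundant. NM_001159556 lies on the reverse strand of chromosome 5 (17781690 to 17888959, 15 exons). Cd36 reached 918, 719 and 781 RPKM in WT cultures 10, 11 and 12 and 1001, 820 and 897 RPKM in Ucp1-KO cultures 13, 14 and 15. WT 11 and WT 12 were below all Ucp1-KO cultures, while WT 10 was above 2 of them. Means of 806 ± 102 and 906 ± 90.9 RPKM gave a log2 fold change of 0.17 (95% interval -0.16 to 0.50, limma adjusted p = 0.889). It was 0.093 without WT 11 and 0.27 without WT 10. Its 5 RefSeq transcripts agreed within narrow limits, all with a 1.12-fold ratio of Ucp1-KO to WT.

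Slc27a1, the transport protein FATP1 of muscle and fat, was the leading member of its family. NM_011977 lies on the forward strand of chromosome 8 (71568728 to 71587307, 14 exons). Its levels were 55.8, 49.2 and 43.0 RPKM in WT cultures 10, 11 and 12 and 53.8, 42.4 and 33.9 RPKM in Ucp1-KO cultures 13, 14 and 15. The spread within either genotype was larger than the distance between the means of 49.3 ± 6.36 and 43.4 ± 9.95 RPKM (log2 fold change -0.20, 95% interval -0.63 to 0.23, limma adjusted p = 0.893). The log2 fold change of Slc27a1 was -0.04 without Ucp1-KO 15 and -0.36 without Ucp1-KO 13. Slc27a4 (FATP4), the form known for its part in skin and intestine, is listed as NM_011989 on the forward strand of chromosome 2 (29802634 to 29817522, 13 exons). It ranged from 18.8 to 22.0 RPKM in WT cultures and from 17.2 to 22.3 RPKM in Ucp1-KO cultures, which enclosed the WT range (log2 fold change -0.04, 95% interval -0.33 to 0.24, limma adjusted p = 0.965). Without single cultures it ranged from -0.13 to 0.05002. In both genes replicate 10 was highest among WT and replicate 13 among Ucp1-KO cultures.

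Slc27a1 accounted for 64.3% to 70.8% and Slc27a4 for 27.9% to 32.6% of the summed RPKM of the 6 family members in each culture. Slc27a2 (FATP2), which is known from liver and kidney, was at the limit of detection. NM_011978 on the forward strand of chromosome 2 (126553024 to 126588243, 10 exons) was covered by 5, 5 and 4 reads in WT and by 20, 5 and 5 reads in Ucp1-KO cultures, where 3 reads served as the floor. In RPKM this was 0.127, 0.130 and 0.0981 in WT and 0.538, 0.126 and 0.145 in Ucp1-KO cells. Ucp1-KO 13 thus stood alone, and the other Ucp1-KO cultures lay beside the WT cultures. A long non-coding gene, Gm26697, overlaps its start on the opposite strand by 639 bases. Liver markers (Alb, Apoa1 and Ttr) summed to at most 0.428 RPKM in any culture, with Ttr listed at 0, and to 0.126 RPKM in Ucp1-KO 13.

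Lpl, the lipase that adipocytes secrete toward the vessel wall, was the third of the 10 genes in abundance. NM_008509 lies on the forward strand of chromosome 8 (68880555 to 68906932, 10 exons). Lpl measured 1070, 1067 and 1184 RPKM in WT cultures 10, 11 and 12 and 1300, 1259 and 1156 RPKM in Ucp1-KO cultures 13, 14 and 15. The genotypes overlapped only through WT 12, which exceeded Ucp1-KO 15. Means of 1107 ± 66.8 and 1238 ± 73.9 RPKM gave a log2 fold change of 0.16 (95% interval -0.11 to 0.43, limma adjusted p = 0.878). When RPKM values were scaled by the median of ratios, the genotypes no longer overlapped for Lpl, which brought the number of such genes to 2 of 9, beside 11.8% of all transcripts.

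Vldlr, the lipoprotein receptor, had the largest coefficient of variation in Ucp1-KO cells among the 9 genes tested (26.3%, against 3.85% in WT cells). NM_001161420 lies on the forward strand of chromosome 19 (27216480 to 27254231, 18 exons). WT cultures 10, 11 and 12 were close together at 27.2, 28.4 and 29.4 RPKM, and Ucp1-KO cultures 13, 14 and 15 were at 28.0, 22.5 and 37.8 RPKM. Ucp1-KO 14 was below and Ucp1-KO 15 above all WT cultures, so that the mean difference was close to 0 (log2 fold change 0.02, 95% interval -0.40 to 0.44, limma adjusted p = 0.989). Without Ucp1-KO 15 it was -0.17, and without Ucp1-KO 14 it was 0.19.

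Dbi, which binds acyl-CoA esters and is present in many tissues, was second in abundance. NM_007830 lies on the reverse strand of chromosome 1 (120113280 to 120121096, 4 exons). Dbi amounted to 1861, 2141 and 1957 RPKM in WT cultures 10, 11 and 12 and to 1855, 1975 and 1893 RPKM in Ucp1-KO cultures 13, 14 and 15. The genotypes overlapped, and WT 11 was the highest culture (log2 fold change -0.06, 95% interval -0.34 to 0.23, limma adjusted p = 0.953). The difference was -0.001 without WT 11 and -0.10 without WT 10. Its pseudogene Gm12222 was listed at 884 to 1054 RPKM and held 0.207 to 0.225 reads per read of Dbi. Dbi formed 93.7% to 94.6% of the summed RPKM of the acyl-CoA-binding protein family, followed by Acbd4.

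Cultures of the same genotype also differed for these genes. Ucp1-KO 13 was the highest of all 6 cultures for 5 of the 10 genes, among them Slc27a2 with 20 reads there. The median deviation of the 9 genes tested from their mean over the cultures was 0.15 on the log2 scale in Ucp1-KO 13, against -0.06 to 0.0009 in the other 5. Neither value was computed over all transcripts, so neither can be called particular to these genes. The median SD of the 9 genes over the 6 cultures was 0.136 on the log2(RPKM + 1) scale, smaller than the 0.172 of all transcripts tested. Fabp3 (0.66), Slc27a1 (0.26) and Vldlr (0.23) had the largest SD.

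Markers of the cell types that such cultures can hold were followed beside these results. Adipocyte markers (Adipoq, Plin1, Pparg, Cidec, Lipe and Pnpla2) summed to 3635 to 4412 RPKM in WT and 3860 to 5062 RPKM in Ucp1-KO cultures, with Ucp1-KO 13 highest, and 0 of 6 separated the genotypes. Brown adipocyte markers other than Ucp1 (Cidea, Cox7a1, Cox8b, Ppargc1a and Elovl3) summed to 1639 to 1834 RPKM in WT and 1633 to 2535 RPKM in Ucp1-KO cultures. None of the 5 separated the genotypes, and they did not move alike. In Ucp1-KO 13, Cox7a1 was at its lowest of all cultures (507 RPKM) and Elovl3 at its highest (225 RPKM). Elovl3, a fatty acid elongase, was lowest in WT 11 like Fabp3 and highest in Ucp1-KO 13, the Ucp1-KO culture with the lowest Fabp3, and averaged 76.2 ± 47.6 RPKM in the WT and 150 ± 65.1 RPKM in the Ucp1-KO cultures (log2 fold change 1.06, limma adjusted p = 0.868, unadjusted 0.0562). In bulk RNA, fewer cells of a type and less RNA per cell cannot be told apart.

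Skeletal muscle markers (Myod1, Myog, Acta1, Ckm, Mylpf and Tnnt3) summed to 3.34 to 8.47 RPKM in WT and to 19.5, 3.20 and 13.6 RPKM in Ucp1-KO cultures 13, 14 and 15. All 6 had a higher mean in Ucp1-KO cells, 0 of 6 separated the genotypes, and Tnnt3 had a log2 fold change of 0.88 (limma adjusted p = 0.868, unadjusted 0.0388). Ucp1-KO 14, with the lowest sum of all cultures, had the highest Fabp3. Stromal markers (Pdgfra, Pdgfrb, Dlk1, Cd34, Ly6a and Dcn) summed to 285 RPKM in WT 11, where Fabp3 was lowest, and to 282 RPKM in Ucp1-KO 14, where it was highest, with Ly6a as the largest contributor to both sums. Of the 5 stromal markers above the minimum abundance, 2 separated the genotypes, both lower in Ucp1-KO cells, beside 11.2% of all transcripts in either direction. Dcn, a proteoglycan of the matrix, was at 55.4, 92.2 and 69.2 RPKM in WT cultures 10, 11 and 12 and at 35.4, 47.9 and 34.4 RPKM in Ucp1-KO cultures 13, 14 and 15 (log2 fold change -0.85, limma adjusted p = 0.868, unadjusted 0.00513). Among WT cultures Dcn was highest in WT 11, where Fabp3 was lowest, and among Ucp1-KO cultures both were highest in Ucp1-KO 14. Pdgfra averaged 20.7 ± 1.64 and 16.4 ± 2.84 RPKM (log2 fold change -0.33, limma adjusted p = 0.868, unadjusted 0.0506), and Pdgfrb 24.5 ± 2.63 and 17.5 ± 6.75 RPKM with overlap. Macrophage markers (Adgre1, Cd68, Csf1r, Ptprc, Cd14 and Mrc1) summed to 182 RPKM in Ucp1-KO 14 and to 12.97 to 63.8 RPKM elsewhere. In that culture Cd36 was the lowest of the Ucp1-KO values and Fabp5 neither highest nor lowest among them. Endothelial markers (Pecam1, Cdh5, Kdr, Tek, Emcn and Vwf) reached 33.4 RPKM in WT 11 and at most 15.7 RPKM in the other cultures. The part of these cells in the abundance of the 10 genes was not tested.

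Other genes of fatty acid uptake, grouped by role, were compared in the same way. All 47 were in the table and 32 reached the minimum abundance. Of these, 0 differed after adjustment by limma or limma-voom, and 3 were higher and 3 lower in Ucp1-KO cells at an unadjusted p of 0.05 in limma, compared with 4 in all by limma-voom. The genotypes did not overlap for 6 of 32 (18.8%), and the median log2 fold change was -0.07. The share of all transcripts whose genotypes did not overlap was 11.2%, as given above, and the unadjusted share 5.54%.

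Of the proteins that govern Lpl, Apoc3, an apolipoprotein that inhibits the lipase, was at 9.73, 5.15 and 6.03 RPKM in WT and 11.2, 9.74 and 12.3 RPKM in Ucp1-KO cultures. Its log2 fold change of 0.64 had a limma adjusted p of 0.868 (unadjusted 0.0206), and the lowest Ucp1-KO value exceeded the highest WT value narrowly. Angptl8, another inhibitor, averaged 19.3 ± 2.13 and 27.2 ± 6.35 RPKM with overlapping cultures (log2 fold change 0.45, limma adjusted p = 0.868, unadjusted 0.0457). Pcsk6, a protease of the proprotein convertase family, ranged from 3.94 to 4.37 RPKM in WT and from 2.67 to 3.23 RPKM in Ucp1-KO cultures (log2 fold change -0.36, limma adjusted p = 0.868, unadjusted 0.0125). Angptl4, the most abundant inhibitor of Lpl here, was at 345 ± 75.7 and 299 ± 37.8 RPKM (log2 fold change -0.19, limma adjusted p = 0.901). Gpihbp1, the endothelial anchor of Lpl, followed the endothelial markers, with 8.34 RPKM in WT 11 and 0.368 RPKM in WT 10.

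Cav2, a protein of caveolae, averaged 105 ± 11.6 RPKM in the WT and 130 ± 9.15 RPKM in the Ucp1-KO cultures without overlap (log2 fold change 0.31, limma adjusted p = 0.868, unadjusted 0.0314). Its partner Cav1, the most abundant further uptake gene, was at 314 ± 49.6 and 392 ± 102 RPKM with overlap (log2 fold change 0.30, limma adjusted p = 0.876). Got2, a mitochondrial aminotransferase also described as a membrane fatty acid binding protein, averaged 24.4 ± 2.33 and 19.9 ± 2.18 RPKM (log2 fold change -0.28, limma adjusted p = 0.868, unadjusted 0.0470).

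For the remaining roles, the most abundant genes overlapped between genotypes. Lrp1, a lipoprotein receptor, was at 46.8 ± 6.67 and 38.1 ± 6.503 RPKM, and Acbd4, an acyl-CoA-binding protein, at 49.7 ± 2.65 and 54.0 ± 5.44 RPKM. Slc27a3 was the sole further Slc27a gene above the minimum, at 1.15 ± 0.459 and 0.920 ± 0.238 RPKM. Pparg, the nuclear receptor that drives Fabp4, Cd36 and Lpl in adipocytes and the target of rosiglitazone, was at 122 ± 4.62 and 135 ± 8.46 RPKM (log2 fold change 0.14, 95% interval -0.07 to 0.35, limma adjusted p = 0.876).

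**Figure D4:**
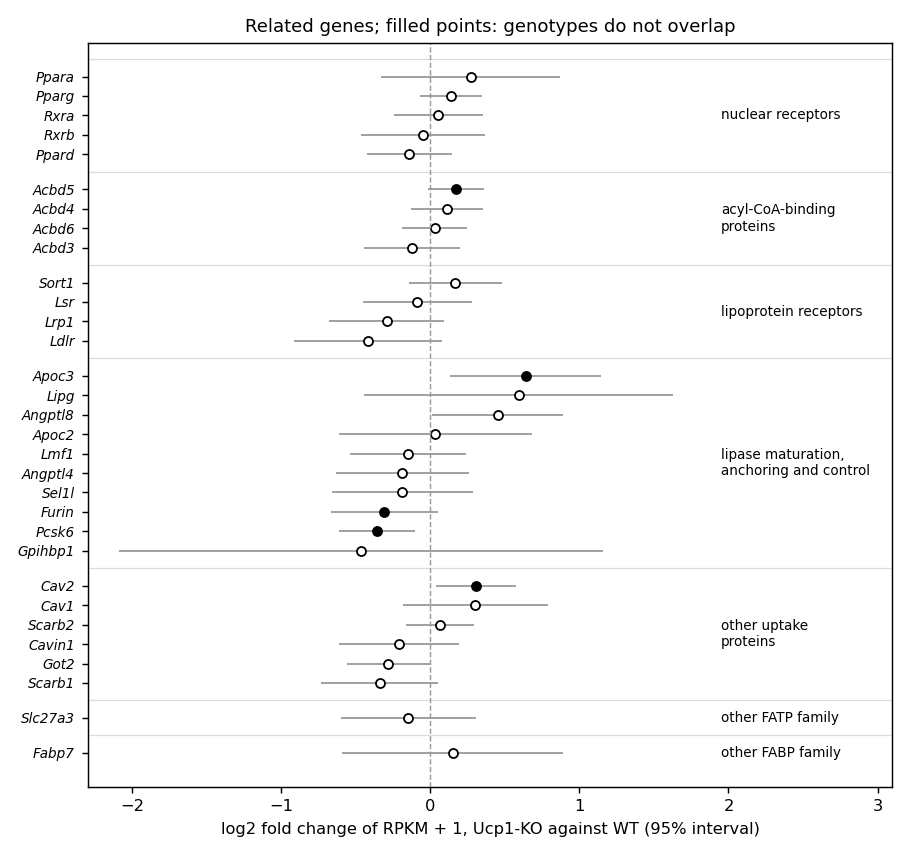
Genotype difference of 31 of the 32 related genes tested as log2 fold change of RPKM + 1, Ucp1-KO against WT (points, with 95% intervals from limma, n = 3), grouped by role. Filled points mark the 5 genes shown whose genotypes did not overlap, 3 of them to the right and 2 to the left of 0.

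The genes whose profile over the 6 cultures was most like that of a member were identified by the root mean square difference of their centred log2(RPKM + 1) values among 5038 genes of at least 10 RPKM. For Fabp3 these were Fmo1 (0.283), Pank1 (0.293) and Slc25a42 (0.299), a flavin monooxygenase, a pantothenate kinase of coenzyme A synthesis and a mitochondrial carrier of coenzyme A. Fmo1 was at 41.1, 26.3 and 30.5 RPKM in WT and at 53.9, 54.7 and 57.7 RPKM in Ucp1-KO cultures, so that WT 11 was again lowest. For Slc27a1, Tpst2 (0.046) and Wdr1 (0.050) were among the 3 closest, and for Vldlr the 3 closest were Rpl35a (0.067), Rpp21 (0.081) and Mrps28 (0.101). With 6 cultures and 5038 genes, such likeness is a description of these cultures.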

How the data were processed

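Reads of 50 bases came from 3 WT and 3 Ucp1-KO cultures of primary brown adipocytes. With the Genomatix software, the authors aligned them to build 38 of the mouse genome, kept those with a unique origin and deposited an RPKM value per transcript and culture, which relates reads to transcript length and mapped reads. The table has 168326 rows and 6 value columns, each named for its culture.

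The 16865 RefSeq transcripts that averaged 0.5 RPKM or more entered limma 3.58.1 (R 4.3.3, empirical Bayes with intensity trend) on log2(RPKM + 1), without covariates, and p-values were adjusted over all of them at a threshold of 0.05. The added constant understates fold changes of low transcripts. For single genes, exact permutation tests (two-sided) were added. Read numbers were recovered from the RPKM values, which gave whole reads (within 0.03 reads for low values and at most 0.15) for 100% of the transcripts tested and totals between 14989604 and 17727653 reads. Floors of 3 reads cover counting error only. Everything else was computed in Python 3.11.15 (scipy 1.17.1, pandas 2.3.3, numpy 2.4.6). Windows of 50 bases were searched on both strands of all GENCODE M21 transcripts. Scripts were tested on simulated data.

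The 10 genes, the related genes and the marker lists were chosen with earlier results of these data known. Named genes are the 10, the most abundant related gene per role, those with an unadjusted p under 0.05, and for the 3 members of largest SD the 3 genes of most similar profile. Gpihbp1, the pseudogenes and the markers given with values of their own were named after their values were seen. Adgre1, Angptl8 and Cavin1 were found under older symbols. Alternatives were another constant (0.1 RPKM), no minimum abundance, 1 transcript per gene, the sum over transcripts, all annotations, median-of-ratios scaling, limma-voom on the recovered reads and leaving out each culture. The reads of pseudogenes were added afterwards. Results for some single genes and 1 marker list are not reported here.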

Additional observations from a re-analysis of the deposited data

How the results depend on the processing

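After adjustment, 0 members passed under each of the 13 alternatives fitted and 0 related genes under each of 12 (related genes were not summed over transcripts), and Fabp3 remained higher in Ucp1-KO cells in all of them, with a log2 fold change between 0.67 (without WT 11) and 1.19 (without WT 12) and an unadjusted p between 0.00352 and 0.0278. Without a minimum abundance, 22 of 28890 transcripts passed the adjusted threshold, none of them a member. The number of members whose genotypes did not overlap was 2 under median-of-ratios scaling (Fabp3 and Lpl, beside 11.8% of all transcripts) and 1 to 3 when single cultures were left out (3 without Ucp1-KO 15, with Fabp5 and Lpl), where 14.4% to 32.8% of all transcripts did not overlap (20.5% without Ucp1-KO 15). The number at an unadjusted p of 0.05 was 1 to 2 (2 without Ucp1-KO 15, with Fabp5 at a limma adjusted p of 0.837, unadjusted 0.0387), and that of related genes 1 to 9 (1 without WT 11, 2 without WT 12, 3 without Ucp1-KO 14 and 9 without WT 10). The share of all transcripts moved alike, to 1.87%, 2.61%, 3.57% and 10.4% in these settings. The median log2 fold change of the members ranged from 0.033 (without WT 11) to 0.13 (without Ucp1-KO 14).

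Differences near 0 changed sign. Slc27a4 was at 0.0067 without WT 10 and 0.05002 without Ucp1-KO 15 (range from -0.13 without Ucp1-KO 13), Vldlr at -0.0058 and -0.17 without the same cultures (range up to 0.19 without Ucp1-KO 14), and Fabp4 at -0.0046 without Ucp1-KO 15 (up to 0.0702 without Ucp1-KO 13). The cause was not tested. Summing over RefSeq transcripts placed Cd36 before Dbi and Vldlr before Slc27a1. Transcripts of the same gene had nearly equal RPKM, so the sum rises with the number listed. That number was 5 for Cd36, 2 for Dbi, 2 for Vldlr and 1 for Slc27a1. Adding pseudogene reads gave log2 ratios of 0.996 for Fabp3, 0.15 for Fabp5 and -0.07 for Dbi.

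No paired analysis was possible because the replicate numbers of the genotypes are not shared. With 3 cultures per genotype the smallest exact p is 0.1, and Fabp3 rested on 61 to 244 reads per culture.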
